A study of Mus musculus with 6 samples.

Results

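The genes described here are the BMP ligands Bmp2, Bmp4, Bmp5 and Bmp7, the BMP receptors Bmpr1a and Bmpr2, the secreted BMP antagonist Grem1 and the transcriptional targets Id1, Id2 and Id3. They were chosen by symbol from 19938 genes that have a probe set of their own in the platform annotation, and all 10 members were found, each with 1 probe set. The tumors came from mice labelled C57BL/6J, at 3 weeks of age, and each was dissected by laser from frozen colon sections and measured on 1 Affymetrix Mouse Gene 1.0 ST array. The genotype was CDX2P-G19Cre;Apcflox/flox;Tgfbr2flox/flox for the 3 double knockout tumors, while the 3 Apc knockout tumors were from CDX2P-G19Cre;Apcflox/flox animals, so that Cre and the deletion of Apc were common to both groups and the groups differ in Tgfbr2. Cre was driven by a promoter fragment of human CDX2, which restricts it to colon epithelium, and becomes active only in those cells where its inserted run of guanines has reverted by frameshift. Deletion is therefore stochastic, and stromal cells of the tumors keep both genes.

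Bone morphogenetic proteins (BMPs) are secreted dimers of the TGF-β superfamily that bind a complex of type I receptors such as Bmpr1a and type II receptors such as Bmpr2. The complex phosphorylates Smad1, Smad5 and Smad9, which enter the nucleus with Smad4 and switch on target genes, among them the Id genes. Id proteins lack a DNA-binding domain and hold E proteins away from DNA. In the colon, BMP activity is high near the surface and opposes stem cell renewal, while antagonists such as gremlin 1 (Grem1), made by cells of the muscle layers and by fibroblasts around the crypt base, keep it low below. Tgfbr2, the gene deleted in the double knockout mice, encodes the type II receptor for TGF-β and is not a receptor of this branch.

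Among the member Id genes, Id2 and Id3 were both lowest in double knockout tumor 2 and next lowest in Apc knockout tumor 2. Other BMP targets, Smad6, Smad7, Bambi and Atoh8, shared this order. Grem1 is the antagonist with the larger difference between groups. Promoter sequences of Id2, Id3 and Grem1 are shown for these reasons. They are RefSeq sequences of GRCm38.p6, 250 bases before to 50 bases after the start of each gene, written 5′ to 3′ on the strand of the gene. Capitals mark GGCGCC, a GC-rich motif to which BMP-activated Smads bind, and the Smad box GTCT, which reads AGAC on the other strand.
Id2, chr12:25096043-25096342, minus strand: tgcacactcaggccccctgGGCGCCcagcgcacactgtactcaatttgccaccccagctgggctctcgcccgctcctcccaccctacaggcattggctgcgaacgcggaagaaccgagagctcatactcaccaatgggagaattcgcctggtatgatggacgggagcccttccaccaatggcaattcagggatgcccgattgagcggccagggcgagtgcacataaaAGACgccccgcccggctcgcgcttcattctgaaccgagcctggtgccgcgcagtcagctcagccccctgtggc
Id3, chr4:136143572-136143871, plus strand: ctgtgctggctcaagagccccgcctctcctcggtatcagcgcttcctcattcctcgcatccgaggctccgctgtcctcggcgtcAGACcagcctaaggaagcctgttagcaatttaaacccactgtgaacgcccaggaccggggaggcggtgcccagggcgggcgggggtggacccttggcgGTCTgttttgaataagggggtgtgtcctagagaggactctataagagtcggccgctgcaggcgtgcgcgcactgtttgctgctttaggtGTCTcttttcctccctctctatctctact
Grem1, chr2:113758599-113758898, minus strand: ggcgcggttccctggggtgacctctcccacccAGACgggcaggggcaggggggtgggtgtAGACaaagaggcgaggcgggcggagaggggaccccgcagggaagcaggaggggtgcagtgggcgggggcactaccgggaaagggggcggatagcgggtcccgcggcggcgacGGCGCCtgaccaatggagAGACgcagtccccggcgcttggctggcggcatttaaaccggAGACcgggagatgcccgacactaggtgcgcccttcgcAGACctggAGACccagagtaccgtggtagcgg
The Id2 promoter held 1 GGCGCC and 1 Smad box, the Id3 promoter 0 and 3, and the Grem1 promoter 1 and 6. Over 27025 promoters of the same length, 12% held GGCGCC and 88% held a Smad box on either strand. A Smad box is thus present in most promoters of this length. A match describes the letters and is not a binding site. Of the 10 members, 7 matched a promoter in the table used here, and Bmp2, Bmp7 and Id1 did not.

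Signals are the authors' log2 values after RMA, and differences are double knockout minus Apc knockout, tested with limma over the 19506 probe sets that carry a symbol and whose mean reached the 20th percentile of all sets. All 10 members passed that filter. The array medians were between 7.68 and 7.80. Double knockout tumor 2 stood apart, with correlations of 0.904 to 0.937 to the other tumors against 0.968 to 0.982 among the other 5. Median signals in it, relative to the other double knockout tumors, were higher by 2.48 on the log2 scale over 14 colonocyte differentiation genes and by 1.64 over 12 smooth muscle markers, and differed by −1.79 over 12 Wnt target and crypt stem cell genes. The 9 colon epithelium markers tested had a median lowest percentile of 97.5 on the arrays. Epcam, Cdh1, Krt8, Krt18, Krt19 and Lgals4 were thus among the highest signals in every tumor. Vil1, Cdx1 and Cdx2 had lowest percentiles of 89.5, 64.6 and 58.2. Cdx2 was at 8.24 in double knockout tumor 2 and at 10.08 to 11.18 in the other 5 tumors. Fewer cells of a type and less RNA per cell cannot be told apart in such samples. Tgfbr2 was at 10.98, 10.35 and 10.47 in double knockout tumors 1 to 3 and at 11.35, 11.37 and 11.09 in Apc knockout tumors 1 to 3, but whether its probes lie in the deleted exons was not established, and these values do not check the genotypes.

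Of the 10 members, Bmp7 was lower and Id1 higher in every double knockout tumor than in every Apc knockout tumor, and Grem1 had a lower mean in double knockout tumors with a small overlap. The other 7 members overlapped between groups with log2 differences from −0.32 to 0.27. No member passed an adjusted p of 0.05 from limma or from the methods' t-test, and no probe set of the array did (0 of 19506, 0%). At an unadjusted p under 0.05, limma called 1 member, Bmp7, which is 10% of the members against 5.6% of all sets tested (3.82% lower and 1.78% higher), and the methods' t-test called 0. Groups did not overlap for 2 members, 20% of them against 12.2% of all sets tested (6.94% lower and 5.25% higher). With 10 genes these shares do not set the members apart from the array. The median log2 fold change was −0.067 over the members and 0.010 over all sets tested.

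**Figure D1:**
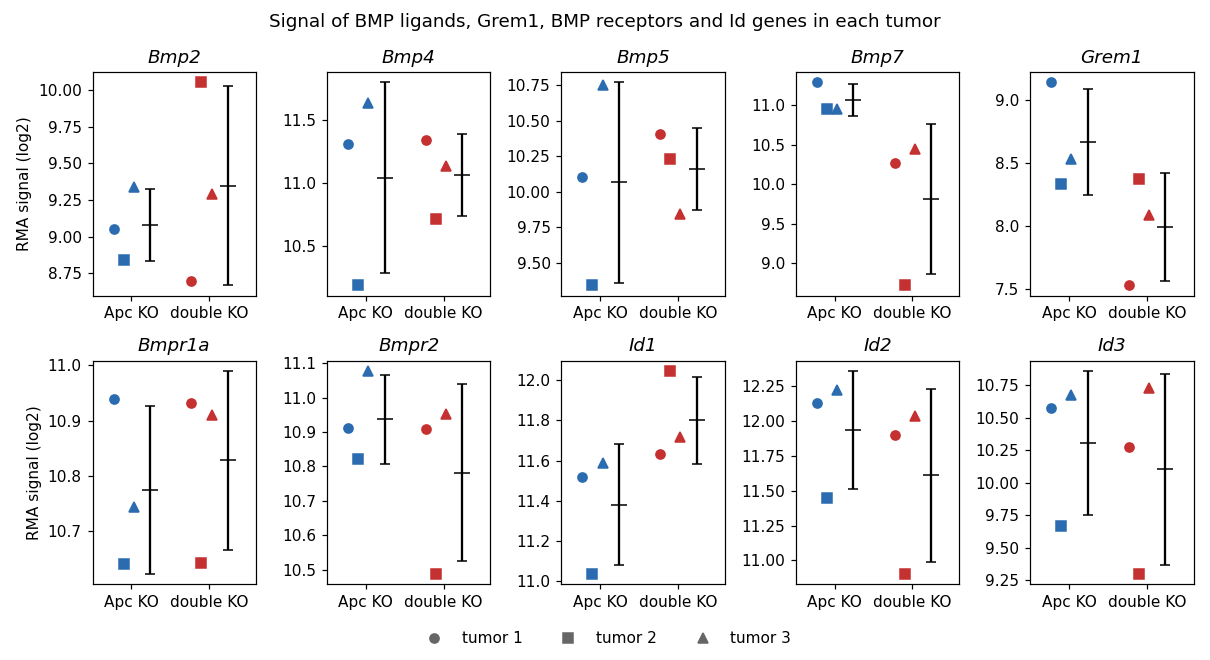
RMA signal on the log2 scale (vertical axes, each with its own range) of the 10 genes, with the Apc knockout group in blue and the double knockout group in red, with 1 point per tumor, its shape giving the tumor number, and the mean and SD of 3 tumors in black. The groups are apart for Bmp7 and Id1, and double knockout tumor 2 (red square) is the lowest point for Bmp7, Bmpr2, Id2 and Id3 and the highest for Bmp2 and Id1.

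Among the ligands, Bmp7 differed most. Bmp7, a ligand made by epithelial cells in many organs, gave 10.27, 8.71 and 10.44 in double knockout tumors 1 to 3, and 11.30, 10.95 and 10.96 in Apc knockout tumors 1 to 3. All double knockout tumors were lower, with double knockout tumor 2 far below the others. The means were 9.81 ± 0.95 (SD, n = 3) and 11.07 ± 0.20 (SD, n = 3), a 2.40-fold difference (−1.26 on the log2 scale, standard error 0.46, 95% confidence interval −2.38 to −0.14, limma unadjusted p = 0.0328, adjusted p = 0.821). The exact permutation test gave a two-sided p of 0.1, the smallest that 3 tumors against 3 allow.
Without double knockout tumor 2 the groups remained apart and Bmp7 was 1.64-fold lower (−0.71 on the log2 scale, standard error 0.15, limma adjusted p = 0.691). The unadjusted call was lost when any 1 of the 3 Apc knockout tumors was left out, with limma log2 differences of −1.15 to −1.32. The limma adjusted p ranged from 0.564 to 0.945 over all alternatives. Wnt target and crypt stem cell genes, 12 in number, had lower summed signals in double knockout tumors as well, 12.75 to 14.76 against 15.02 to 15.27 on the log2 scale. The lowest signal was in double knockout tumor 2 for 10 of them, a count that was not set against all sets. The part of this list in the Bmp7 difference was not tested.

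Bmp2, Bmp4 and Bmp5 overlapped between groups. Bmp4, the BMP ligand of the stroma beneath the intestinal epithelium, was at 11.34, 10.71 and 11.14 in double knockout tumors 1 to 3 and at 10.18 to 11.63 in Apc knockout tumors, with Apc knockout tumor 2 the lowest. Its double knockout to Apc knockout ratio had a 95% confidence interval of 0.522 to 1.97, around a log2 difference of 0.021 (standard error 0.39). The interval includes differences of nearly 2-fold in either direction.
Bmp5, a close relative of Bmp7, was at 10.40, 10.23 and 9.84 in double knockout tumors 1 to 3 and at 10.10, 9.34 and 10.75 in Apc knockout tumors 1 to 3 (log2 difference 0.094, standard error 0.37). As for Bmp4, Apc knockout tumor 2 was the lowest tumor and Apc knockout tumor 3 the highest. Without Apc knockout tumor 2 the log2 difference was −0.41 for Bmp4 and −0.27 for Bmp5. The sign was also negative without double knockout tumor 1 for both genes (−0.12 and −0.028) and without double knockout tumor 3 for Bmp4 (−0.016). The 12 fibroblast markers summed to 13.88 in Apc knockout tumor 2 and to 14.35 and 14.41 in Apc knockout tumors 1 and 3. They summed to 14.33, 14.44 and 13.44 in double knockout tumors 1 to 3. In double knockout tumor 3 Bmp5 was the lowest of its group and Bmp4 was between the other double knockout tumors. In double knockout tumor 2, with the highest sum of all tumors, Bmp4 was the lowest of its group and Bmp5 was below double knockout tumor 1. The part of these markers in the Bmp4 and Bmp5 values was not tested.
Bmp2, a ligand that differentiated surface epithelium and stroma both make, was at 8.70, 10.05 and 9.29 in double knockout tumors 1 to 3 and at 9.06, 8.84 and 9.34 in Apc knockout tumors 1 to 3. The highest and the lowest signal were both in double knockout tumors, 2 and 1, and the SD was 0.68 in double knockout tumors and 0.25 in Apc knockout tumors. The log2 difference of 0.27 (standard error 0.35) was −0.085 without double knockout tumor 2. Bmp2 was highest in double knockout tumor 2, in which colonocyte differentiation genes were highest too, at a sum of 16.08. These genes summed to 14.63 in double knockout tumor 1, where Bmp2 was the lowest, and to 13.30 in double knockout tumor 3. In Apc knockout tumors 1 to 3 they summed to 14.78, 13.47 and 14.28. Their part in the Bmp2 value was not tested.

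Grem1, the antagonist that binds BMP2, BMP4 and BMP7 outside the cell, was lower on average in double knockout tumors. Its signals were 7.53, 8.37 and 8.09 in double knockout tumors 1 to 3 and 9.14, 8.33 and 8.53 in Apc knockout tumors 1 to 3. The groups overlapped only through double knockout tumor 2, which lay just above Apc knockout tumor 2. Grem1 was 1.60-fold lower (−0.67 on the log2 scale, standard error 0.29, 95% confidence interval −1.39 to 0.038, limma adjusted p = 0.821).
Leaving out double knockout tumor 2 gave a 1.82-fold lower value (−0.86 on the log2 scale, standard error 0.29, limma unadjusted p = 0.0254, adjusted p = 0.811), and the groups then did not overlap. It was −0.44 on the log2 scale without Apc knockout tumor 1 or without double knockout tumor 1, the tumors at the ends of the range. Its percentile on the arrays ran from 46.4 to 69.6, the lowest start among the members. The 12 smooth muscle markers summed to 14.38 in double knockout tumor 2 and to between 12.27 and 12.93 in the other 5 tumors. Grem1 was highest among the double knockout tumors in that same tumor, but higher still in Apc knockout tumors 1 and 3, at sums of 12.85 and 12.93. It was lowest in double knockout tumor 1, where the markers summed to 12.89, against 12.43 in double knockout tumor 3. The part of these markers in the Grem1 value was not tested.

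The receptors overlapped between groups. Bmpr1a, the type I receptor of the intestinal epithelium whose human gene is mutated in juvenile polyposis, was at 10.93, 10.64 and 10.91 in double knockout tumors 1 to 3 and at 10.94, 10.64 and 10.74 in Apc knockout tumors 1 to 3. The range within each group was about as wide as the range over all tumors. Its ratio between groups was 1.04-fold, with a 95% confidence interval of 0.828 to 1.30, the narrowest interval of the 10 members.
Bmpr2, the type II receptor, was at 10.91, 10.49 and 10.95 in double knockout tumors 1 to 3 and at 10.91, 10.82 and 11.08 in Apc knockout tumors 1 to 3. Only double knockout tumor 2 lay below the Apc knockout tumors. The log2 difference was −0.15 (standard error 0.16), and −0.0066 without that tumor. The ratio had an interval of 0.687 to 1.17.

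**Figure D2:**
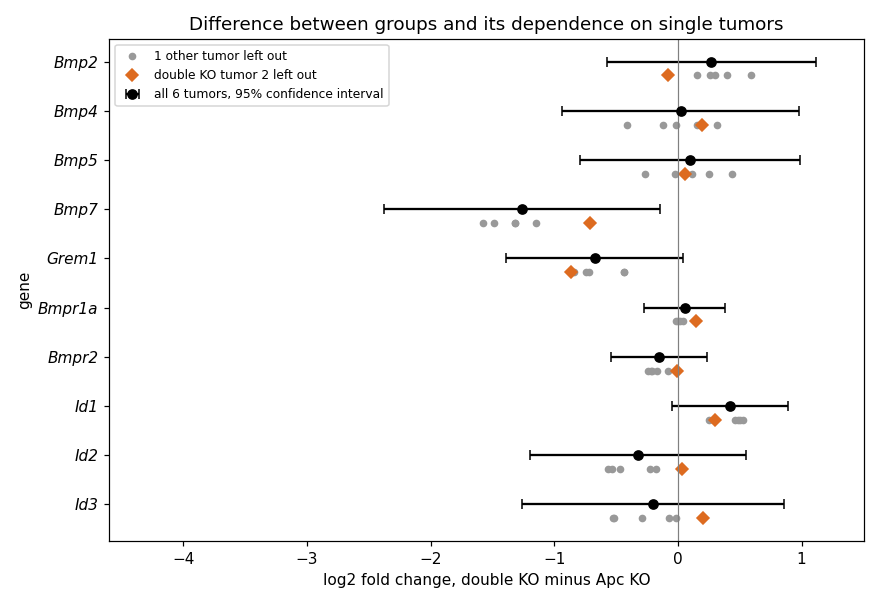
Log2 fold change of double knockout minus Apc knockout (horizontal axis) for the 10 genes (vertical axis). Black points with bars are all 6 tumors with the 95% confidence interval from limma, orange diamonds leave out double knockout tumor 2, and grey points leave out 1 of the other tumors. Bmp7, Grem1, Id1 and Bmpr2 keep their sign in every fit, with Bmpr2 at −0.0066 without double knockout tumor 2. Bmp2, Id2 and Id3 change sign without that tumor, and Bmp4, Bmp5 and Bmpr1a without some other tumor.

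No Id gene passed an unadjusted p of 0.05 in limma. Id1, the Id gene most often used as a readout of BMP signaling, had a higher mean in double knockout tumors, and Id2 and Id3 had lower means with all 6 tumors but higher ones without double knockout tumor 2. Id1 was at 11.63, 12.05 and 11.72 in double knockout tumors 1 to 3 and at 11.52, 11.03 and 11.59 in Apc knockout tumors 1 to 3. The groups did not overlap, but double knockout tumor 1 was only just above Apc knockout tumor 3. The difference was 1.34-fold (0.42 on the log2 scale, standard error 0.19, 95% confidence interval −0.050 to 0.89, limma adjusted p = 0.821, and two-sided exact permutation p = 0.1, the smallest possible). It was 0.25 on the log2 scale without Apc knockout tumor 2 and 0.30 without double knockout tumor 2, the lowest and the highest tumor.
Id2 was at 11.90, 10.90 and 12.04 in double knockout tumors 1 to 3 and at 12.13, 11.45 and 12.23 in Apc knockout tumors 1 to 3. Id3 was at 10.28, 9.30 and 10.73 in double knockout tumors and at 10.57, 9.67 and 10.68 in Apc knockout tumors. Both genes were lowest in double knockout tumor 2 and next lowest in Apc knockout tumor 2. Among the remaining 4 tumors the groups overlapped for Id3, while for Id2 both double knockout tumors were below both Apc knockout tumors. The log2 differences of −0.32 for Id2 (standard error 0.36) and −0.20 for Id3 (standard error 0.44) were 0.032 and 0.20 without double knockout tumor 2.
The Id genes parted in double knockout tumor 2. Relative to the mean of the Apc knockout tumors, that tumor was at 0.67 for Id1, −1.03 for Id2 and −1.01 for Id3 on the log2 scale. In Apc knockout tumor 2 all 3 were low, at −0.35, −0.49 and −0.64. Id4, the family member least tied to BMP in the gut, was at 0.67 in double knockout tumor 2, as Id1 was, and at −0.32 in double knockout tumor 3.

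Other BMP target genes were taken from a list of 10, of which 9 were tested, and none passed an unadjusted p of 0.05 in limma. The lowest signal was in double knockout tumor 2 for 6 of these 9 genes. This count is not a result about BMP targets, since the share of all sets lowest in double knockout tumor 2, which stood apart over the array, was not counted. That tumor was at −1.50 for Smad7 and −0.82 for Smad6, the inhibitory Smads, at −1.37 for Bambi, a decoy receptor, and at −2.20 for Msx1, a homeobox factor, relative to the Apc knockout mean. Smad7 and Bambi answer to TGF-β and Wnt signaling as well as to BMPs.
Smad7 was at 10.75, 9.43 and 11.08 in double knockout tumors 1 to 3 and at 10.63 to 11.14 in Apc knockout tumors. Its log2 difference was −0.51 (standard error 0.43) and −0.015 without double knockout tumor 2. Bambi (−0.36, standard error 0.53) and Smad6 (−0.20, standard error 0.36) were at 0.14 and 0.10 without it. The remaining tumors of both groups overlapped for Smad6, Smad7 and Bambi. For Msx1, double knockout tumors 1 and 3 were at 10.84 and 11.26, above the Apc knockout tumors at 10.28 to 10.57, and over all 6 tumors the log2 difference was −0.30 (standard error 0.78).

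**Figure D3:**
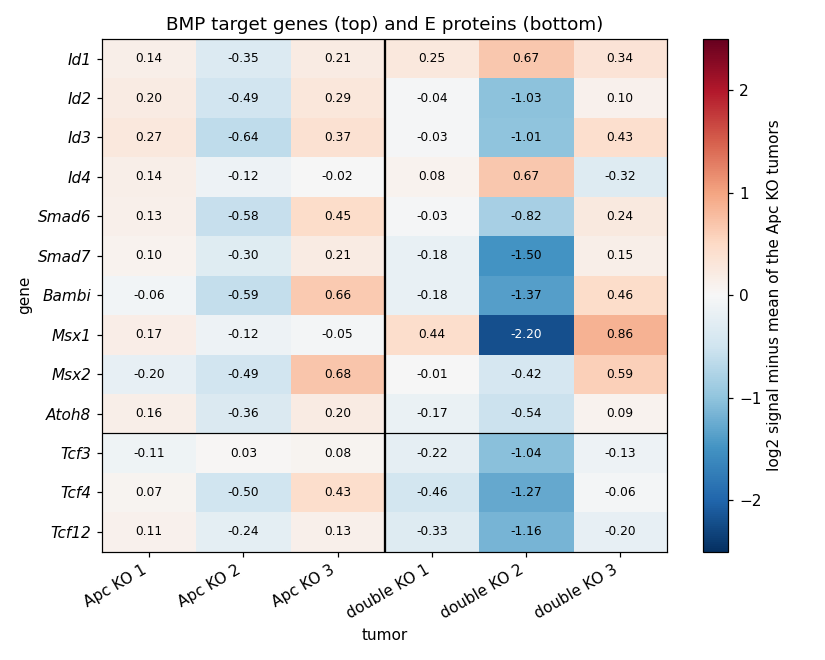
Log2 signal of 10 BMP target genes and 3 E protein genes (rows) in each tumor (columns) as the difference from the mean of the Apc knockout tumors, with blue for lower and red for higher values and the value written in each cell. In double knockout tumor 2, Id2, Id3, Smad6, Smad7, Bambi, Msx1 and the E protein genes lie between −2.20 and −0.82, while Id1 and Id4 are both at 0.67.

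The E proteins, the basic helix-loop-helix factors that Id proteins sequester, had lower means in double knockout tumors for all 3 genes. Tcf12 was at 11.54, 10.72 and 11.68 in double knockout tumors 1 to 3 and at 11.98, 11.64 and 12.00 in Apc knockout tumors 1 to 3 (log2 difference −0.56, standard error 0.27). Tcf3 was at 10.74, 9.92 and 10.83 against 10.85, 10.99 and 11.04, without overlap (−0.46, standard error 0.25). Tcf4 was at 11.52, 10.70 and 11.92 against 12.05, 11.47 and 12.41 (−0.60, standard error 0.37).
None of the 3 passed an unadjusted p of 0.05 in limma, and each had its lowest signal in double knockout tumor 2. Without that tumor the log2 differences were −0.26 for Tcf12, −0.18 for Tcf3 and −0.26 for Tcf4. They kept their sign in every fit that left out 1 tumor.

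Receptor-regulated Smads, which carry the signal from the receptors, differed by at most 0.26 on the log2 scale between groups. Smad1 was at 9.70, 9.78 and 9.70 in double knockout tumors 1 to 3 and at 9.90, 10.04 and 10.02 in Apc knockout tumors 1 to 3. Both groups were tight, with SDs of 0.044 and 0.075, and did not overlap. Smad1 was 1.20-fold lower (−0.26 on the log2 scale, standard error 0.095, limma unadjusted p = 0.0311, adjusted p = 0.821), and −0.29 without double knockout tumor 2. The unadjusted call was lost with median centring (−0.23), with the replicate block, and without double knockout tumor 1 or 3 or Apc knockout tumor 2 or 3 (−0.25 to −0.24).
Smad5 was lower without overlap by a smaller amount (−0.18, standard error 0.11), with double knockout tumor 2 at 10.20 and Apc knockout tumor 2 at 10.23. Smad4, the partner shared with TGF-β signaling, differed by 0.083 (standard error 0.19) and Smad9 by 0.050 (standard error 0.19). Of the 4 Smads of this branch, 1 passed the unadjusted threshold in limma, against 3.82% of all sets tested that were lower at that threshold. Lower without overlap were 2 of the 4, against 6.94% of all sets tested.

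Over all 6 lists of other pathway genes, 47 genes of 53 listed symbols were tested, of which 21 had higher and 26 lower means in double knockout tumors. Their median difference was −0.022 on the log2 scale. An unadjusted p under 0.05 in limma was reached by 3 lower genes and 0 higher ones of the 47, and an adjusted p under 0.05 by 0. Of all sets tested, 5.6% reached that unadjusted threshold (3.82% lower and 1.78% higher). Groups did not overlap for 7 of the 47 (14.9% against 12.2% of all sets tested). Of these, 5 were lower and 2 higher, against 6.94% lower and 5.25% higher of all sets tested. The higher ones were the modulators Chrdl2 (0.30 on the log2 scale) and Tll1 (0.28). The pathway as listed was thus close to the array in these shares.
Bmper, a secreted modulator that binds BMPs, was at 7.81, 7.29 and 7.74 in double knockout tumors 1 to 3 and at 8.18, 8.14 and 8.22 in Apc knockout tumors 1 to 3. It had the smallest p of the pathway genes (−0.56 on the log2 scale, standard error 0.16, limma unadjusted p = 0.0112, adjusted p = 0.821). The Apc knockout tumors were tight, with an SD of 0.042, and the difference was −0.40 without double knockout tumor 2.
Bmp1 is not a BMP but a metalloprotease that processes procollagen and cleaves the antagonist chordin. It was at 10.05, 9.55 and 9.98 in double knockout tumors 1 to 3 and at 10.54, 10.11 and 10.74 in Apc knockout tumors 1 to 3, with no overlap (−0.61 on the log2 scale, standard error 0.21, limma unadjusted p = 0.0286, adjusted p = 0.821). The unadjusted call was lost with the methods' t-test, without double knockout tumor 2 (−0.45), and when Apc knockout tumor 1 (−0.57) or 3 (−0.47) was left out.

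Among other antagonists, noggin (Nog) differed by −0.0056 (standard error 0.11) and chordin (Chrd) by 0.040 (standard error 0.16). Of the 14 antagonists and modulators tested, 7 had higher and 7 lower means. Of 8 other ligands, 5 had lower and 3 higher means and none passed the unadjusted threshold in limma. Bmp10 and Bmp15 lay below the filter on level and were not tested.
Of 9 other receptors and co-receptors tested, none passed that threshold. The type I receptor Acvr1 differed by −0.15 (standard error 0.15) and the type II receptor Acvr2a by 0.18 (standard error 0.13). Bmpr1b, another type I BMP receptor, had signals below the filter and was not tested. All receptor and co-receptor genes tested, members included, differed by at most 0.18 on the log2 scale in either direction.

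**Figure D4:**
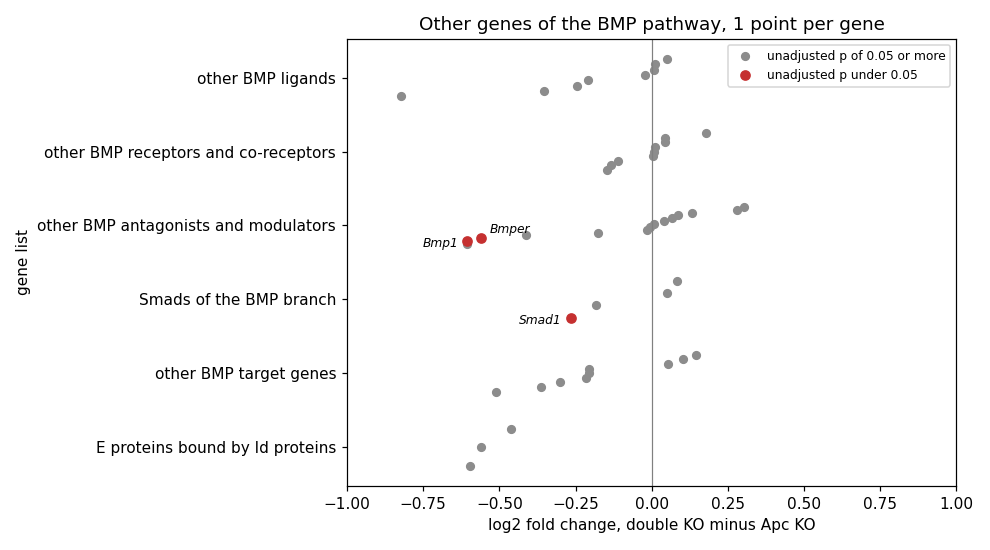
Log2 fold change of double knockout minus Apc knockout (horizontal axis) of 47 other genes of the BMP pathway, 1 point per gene, in 6 lists by role (vertical axis), with genes at an unadjusted limma p under 0.05 in red and named. Bmp1, Bmper and Smad1 are the 3 red points and all lie below 0, and all 3 E protein genes lie between −0.60 and −0.46. Of all sets tested, 3.82% were lower and 1.78% higher at that threshold.

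Genes whose signals over the 6 tumors were most like those of Id1, Id3, Bmp4 and Grem1 were sought among 16784 tested genes by Pearson's r, as a description, since many genes reach a high r over so few arrays. For Id1 they were Trappc12 (0.994), Gnat2 (0.994) and Ccdc91 (0.992), and for Id3 Rai14 (0.996), Ppp1r26 (0.989) and Nedd4 (0.989). For Bmp4 they were Glipr2 (0.996), Ccdc114 (0.994) and Sdc3 (0.986), and for Grem1 Serpinf2 (0.981), Emp2 (0.980) and Cblif (0.978). No member of the pathway lists was among these 12 genes.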

How the data were processed

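RNA of laser-dissected colon tumors was measured on Affymetrix Mouse Gene 1.0 ST arrays, 1 per tumor. The deposited values are log2 signals that the authors made with RMA in GeneSpring GX, that is with background correction, quantile normalization over the arrays and a summary per probe set, so a shift common to most genes is removed. The RMA version and genome build: not given in the sources used here. Probe sets were named from the platform annotation, and of 35556 sets 21789 carry 1 symbol, 1621 several and 12146 none. A gene is its single-symbol set with the highest mean.
The 19506 sets that carry a symbol and whose mean reached the 20th percentile (5.88) were fitted with limma 3.58.1 (lmFit, eBayes) in R 4.3.3 with no covariate, as two-sided tests at a threshold of 0.05 after Benjamini-Hochberg adjustment over all of them. The methods' t-test is the unpaired test with equal variances. Exact permutation tests covered single genes. A summed signal of a marker list is the log2 of its summed linear signals. Named genes were the members, the pathway genes at an unadjusted p under 0.05, a fixed list of Smads, receptors, antagonists, targets and E proteins, and the 3 genes most like Id1, Id3, Bmp4 and Grem1. Msx1 was added after its values were seen. Members and lists were chosen with earlier results of these data known. The fit was tested on simulated data. The number of arrays limits the precision. Alternatives are given in the closing section.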

Additional observations from a re-analysis of the deposited data

How the results depend on the processing

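All 10 members stayed above an adjusted p of 0.05 under each alternative: the methods' t-test, no filter or a 40th percentile filter (7.15), all probe sets, eBayes with a trend and robust priors, median centring, quantile normalization once more, the replicate block, the mean of a gene's probe sets, and each tumor left out. Their signs held in all of these but the last, where 9 of 60 values, from 6 members, reversed. The ranges with 1 tumor left out were −0.085 to 0.59 for Bmp2, −0.41 to 0.32 for Bmp4, −0.27 to 0.44 for Bmp5, −0.013 to 0.15 for Bmpr1a, −0.57 to 0.032 for Id2 and −0.52 to 0.20 for Id3. Among other genes they were −0.12 to 0.37 for Id4, −0.10 to 0.21 for Smad4, −0.49 to 0.10 for Smad6, −0.14 to 0.22 for Smad9, −0.78 to 0.14 for Bambi, −0.049 to 0.059 for Nog and −0.12 to 0.15 for Chrd, and Nog was at 0.029 after median centring.
Members at an unadjusted p under 0.05 numbered 1 in the main fit, 0 with the methods' t-test and 0 to 2 with 1 tumor left out (0 without Apc knockout tumor 1 or 3, Grem1 alone without Apc knockout tumor 2, and both Bmp7 and Grem1 without double knockout tumor 2). Other pathway genes at that threshold numbered 3, and 2 to 4 with 1 tumor left out. Members without overlap numbered 2, and 2 to 4 with 1 tumor left out (4 without Apc knockout tumor 2). Groups of fewer tumors are apart more easily for any gene. The shares over all sets are given for the main fit only, so these counts cannot be read against them. With the replicate number as a block, 5 pathway genes passed and 4 members did not overlap after the mean of each number was removed. Removing those means makes no overlap easier for any gene, and neither count was set against all sets in that fit. The rise in these counts is therefore not a result about these genes. The sample titles number the tumors and do not say whether the numbers pair them. Deviations of same-numbered tumors correlated at −0.203, −0.0649 and 0.0915, which cannot decide this with 3 tumors a group. The cause of these shifts was not tested. With 3 arrays a group, differences of the size seen here cannot be told from the spread between tumors.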
